A study of Mus musculus with 10 samples.

Results

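The 4 mouse genes with a TSC22 domain, Tsc22d1, Tsc22d2, Tsc22d3 and Tsc22d4, were described in 10 RNA-seq libraries from developing lymphocytes and granulocytes. They were picked by their gene symbols, 4 of 22923 symbols in the deposited tables, and each stood on 1 row. The family was singled out because Tsc22d1 was higher in all 4 lymphoid libraries labelled CKO than in their Control partners. The difference between the genotype labels is therefore given as a description with no test, for all 4 genes.

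The study measured 5 populations: cycling and quiescent CD4+CD8+ thymocytes from the thymus, and large pre-B cells, small pre-B cells and mature granulocytes from the bone marrow. Each population gave 1 Control library (Dyrk1a flox/flox, Mx1-Cre-) and 1 CKO library (Dyrk1a -/-, Mx1-Cre+), each from 2 pooled mice. All animals were C57bl/6 and 4 weeks old. The sources used here do not give the agent or schedule that induced deletion. DYRK1A is a protein kinase known for acting on regulators of cell-cycle exit. Mx1-Cre is driven by an interferon-inducible promoter and is active in many blood-forming and other cells, so deletion is not restricted to 1 cell type. The Control animals lack Cre, so effects of Cre or of its induction cannot be told apart from those of the deletion.

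TSC22 domain proteins share a conserved segment, the TSC box, followed by a leucine zipper through which they pair with each other and with further partners. TSC22D1 was named as a transcript stimulated by TGF-beta. TSC22D3, also called GILZ (glucocorticoid-induced leucine zipper), is a well-known glucocorticoid-responsive gene of thymocytes and other leukocytes. Members of the family bind NRBP1, a pseudokinase, and are linked through it to the WNK kinases, which act through OXSR1 and STK39 on ion cotransporters of the SLC12 family.

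The shared segment is shown because it is what defines the 4 genes as a family. A stretch of 150 coding bases aligned in all 4 without a gap, across the TSC box and the start of the zipper. Capitals mark the 87 bases that are the same in all 4. The sequences are from GENCODE transcripts on mm10, 5′ to 3′ on the coding strand.
Tsc22d1: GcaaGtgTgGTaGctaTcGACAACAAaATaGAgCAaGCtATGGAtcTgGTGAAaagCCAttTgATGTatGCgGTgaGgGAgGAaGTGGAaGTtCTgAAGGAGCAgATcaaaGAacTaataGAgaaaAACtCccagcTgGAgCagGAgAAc
Tsc22d2: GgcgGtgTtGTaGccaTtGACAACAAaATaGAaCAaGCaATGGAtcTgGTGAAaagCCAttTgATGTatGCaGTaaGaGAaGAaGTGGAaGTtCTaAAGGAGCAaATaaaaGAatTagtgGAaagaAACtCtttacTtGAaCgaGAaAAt
Tsc22d3: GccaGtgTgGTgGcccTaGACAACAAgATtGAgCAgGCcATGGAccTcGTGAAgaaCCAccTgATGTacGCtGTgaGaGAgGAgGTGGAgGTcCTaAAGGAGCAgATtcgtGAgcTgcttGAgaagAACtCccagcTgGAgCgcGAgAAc
Tsc22d4: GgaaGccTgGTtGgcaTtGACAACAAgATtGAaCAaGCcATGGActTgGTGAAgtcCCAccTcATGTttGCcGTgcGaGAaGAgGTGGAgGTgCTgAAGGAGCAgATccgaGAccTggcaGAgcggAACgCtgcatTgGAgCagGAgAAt

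In each gene the stretch was split over 2 exons, with 42 bases in the first and 108 in the next. Tsc22d1 and Tsc22d2 were the most alike pair, with 120 of 150 bases identical (80%). Tsc22d1 shared 117 bases with Tsc22d3 (78%) and 107 with Tsc22d4 (71.3%). Tsc22d3 and Tsc22d4 shared 111 bases (74%), and Tsc22d2 was least like Tsc22d4, with 103 (68.7%).

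The genes lie on 4 chromosomes. Tsc22d1 spans chr14:76414961-76507765 on the plus strand, and its part of the stretch lies in exons at chr14:76505256-76505297 and chr14:76506417-76506524. Tsc22d2 spans chr3:58414715-58466783 on the plus strand. Tsc22d3 spans chrX:140539528-140600659 on the minus strand, and Tsc22d4 spans chr5:137745730-137768450 on the plus strand. The genes differ in how many annotated forms keep the whole stretch: 4 of 9 basic coding transcripts of Tsc22d1, 2 of 2 of Tsc22d2, 3 of 3 of Tsc22d3 and 2 of 5 of Tsc22d4. The coding length ranges from 249 to 3234 bases among transcripts of Tsc22d1 and from 342 to 606 among those of Tsc22d3. The deposited values are per gene, so which of these forms was expressed was not measured here.

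Levels are given as FPKM (fragment counts scaled by transcript length and by library size), which can be compared between genes because they are per length. The libraries listed 9818 to 10350 symbols at 1 FPKM or more, and read depth is not known. Dyrk1a at the gene level was 31.2 to 37.4 FPKM in the Control libraries and 34.4 to 44.7 in the libraries labelled CKO, and was higher in the CKO library of every pair. A whole-gene value does not read the floxed exons by themselves, so it does not check the deletion, and "CKO" below is the label. Ddx3y and Eif2s3y, 2 Y-linked genes, were at most 0.0598 FPKM in every Control library and at least 7.26 in every CKO library. The pools therefore differ in Y-linked transcripts too, and may differ in sex make-up, which was not tested. The Y-linked difference goes with the genotype label in every pair. In the CKO over Control ratios, those of Tsc22d1 included, the 2 cannot be told apart. Thymocyte markers summed to 1980 to 3429 FPKM in thymocytes, to 88.4 to 546 in pre-B cells, which share Rag1, and to 17.4 or less in granulocytes. Pre-B markers summed to 1876 to 3782 in pre-B cells and to 23.9 or less elsewhere. Of 11 granulocyte markers found, 8 were higher and 1 lower in granulocytes than in lymphoid cells by limma, beside 41.3% and 39.5% of all genes. S100a9, an abundant granulocyte gene, is listed at 0 there, so that a 0 in these tables can be a failed estimate. No member had one. S100a8 and Ngp are listed at 0 in Control granulocytes only, and at 246142 and 39818 FPKM in CKO granulocytes. Both are counted among the genes at least 2-fold higher in CKO granulocytes. Granulocyte markers summed to 1015 FPKM in Control and 506 in CKO large pre-B cells. In bulk libraries, fewer cells of a type and less RNA per cell cannot be told apart.

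Tsc22d1 was an abundant transcript in thymocytes and the scarcest of the family in granulocytes. Control cycling thymocytes had 58.7 FPKM and CKO cycling thymocytes 199. Control quiescent thymocytes had 57.7 and CKO quiescent thymocytes 218. Within a label the 2 states had like levels, and the CKO library was the higher in both states.

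The same direction held in pre-B cells from a lower start. Large pre-B cells had 14.4 FPKM of Tsc22d1 in the Control and 42.3 in the CKO library. Small pre-B cells had 19.2 in the Control and 101 in the CKO library. Each of the 4 lymphoid CKO libraries was above its own Control, but the 2 genotype labels overlapped across populations, since the Control thymocytes lay above the CKO large pre-B cells. Granulocytes had 1.95 and 2.28 FPKM, both under the 5 FPKM that 1 library of a pair had to reach for a ratio to be read.

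**Figure D1:**
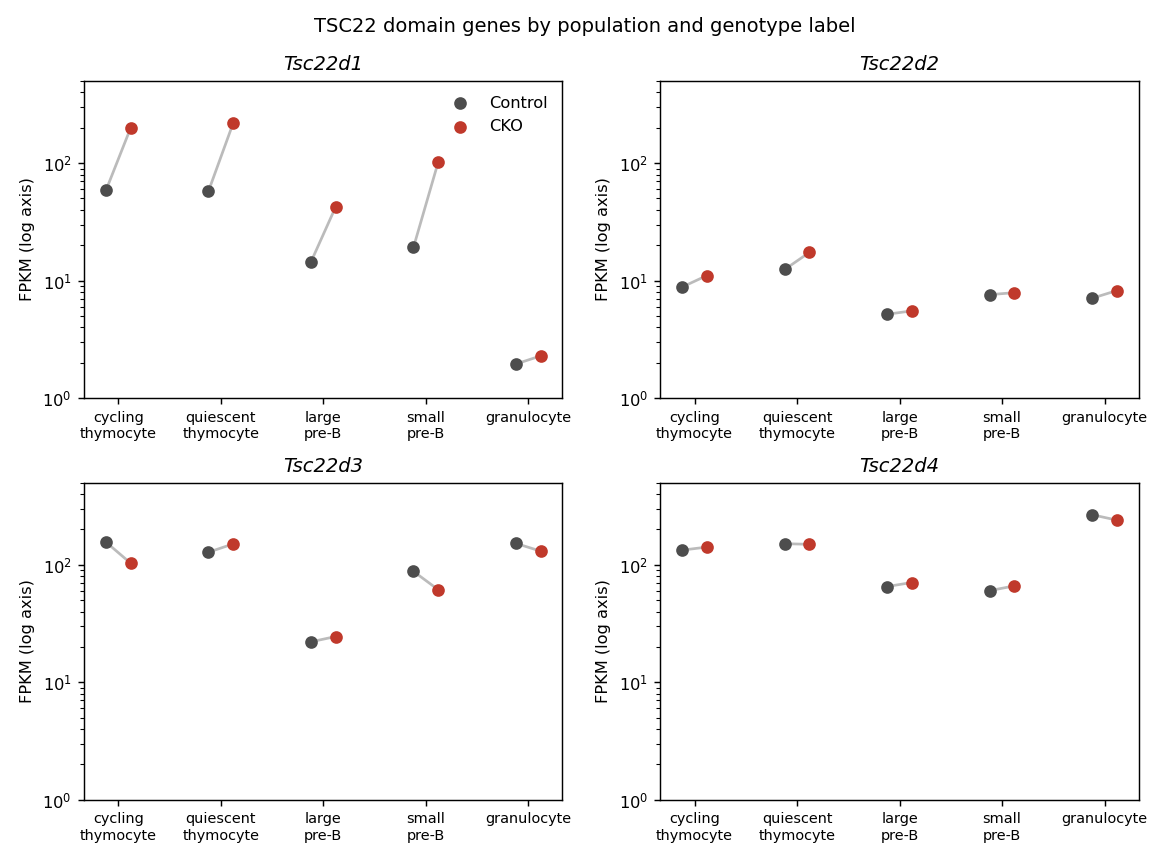
FPKM on a log axis (vertical) of each family member in 5 populations (horizontal), with 1 point per library, Control in grey and CKO in red, and a line joining the pair of a population. Tsc22d1 lies higher in the CKO library of the 4 lymphoid pairs and near 2 FPKM in granulocytes, while the other 3 genes stay under 2-fold within each pair.

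As a log2 ratio of FPKM + 1, CKO over Control, Tsc22d1 was 1.74 in cycling thymocytes, 1.90 in quiescent thymocytes, 1.49 in large pre-B cells and 2.34 in small pre-B cells. These are plain ratios of 3.39, 3.78, 2.93 and 5.28. A ratio of at least 2-fold upward was found for 0.374% of 7755 genes in cycling thymocytes, 3.66% of 7852 in quiescent thymocytes, 0.871% of 7920 in large pre-B cells and 4.52% of 8207 in small pre-B cells. Of 6578 genes that could be read in all 4 lymphoid pairs, 14.5% were higher in CKO in every pair, and 3 (0.0456%) were so by at least 2-fold each time: Tsc22d1, Ddx3y and Eif2s3y. Nothing is read from these shares, because the family was chosen on this contrast.

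The other 3 members stayed under 2-fold in every population. Tsc22d2 was the scarcest member in lymphoid cells. It was 8.81 FPKM in Control and 11.03 in CKO cycling thymocytes, and 12.4 and 17.4 in quiescent thymocytes. It was 5.17 and 5.52 in large pre-B cells, 7.59 and 7.89 in small pre-B cells, and 7.08 and 8.22 in granulocytes. The CKO value was the higher in all 5 pairs, by log2 ratios from 0.05 in small pre-B cells to 0.45 in quiescent thymocytes, and 9.89% of 5892 genes were higher in CKO in all 5.

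Tsc22d3, the glucocorticoid-induced member, went in both directions. Cycling thymocytes had 156 FPKM in the Control and 103 in the CKO library (log2 ratio −0.59), and small pre-B cells had 87.9 and 61.5 (−0.51). Quiescent thymocytes had 128 and 151 (0.23), and large pre-B cells had 22.1 and 24.5 (0.14). Granulocytes had 152 and 131 (−0.22). The cycling thymocyte value lay below the 5th percentile of all genes there (−0.41), and the small pre-B value lay above its 5th percentile (−0.67). Tsc22d3 is on the X chromosome, and the part of the difference between the pools in Y-linked transcripts in these ratios was not tested.

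Tsc22d4 was nearly level between the labels. It was 133 FPKM in Control and 142 in CKO cycling thymocytes, and 151 and 150 in quiescent thymocytes. Large pre-B cells had 65.4 and 70.7, small pre-B cells 60.3 and 66.2, and granulocytes 267 and 240. Its log2 ratios ran from −0.15 in granulocytes to 0.13 in small pre-B cells.

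**Figure D2:**
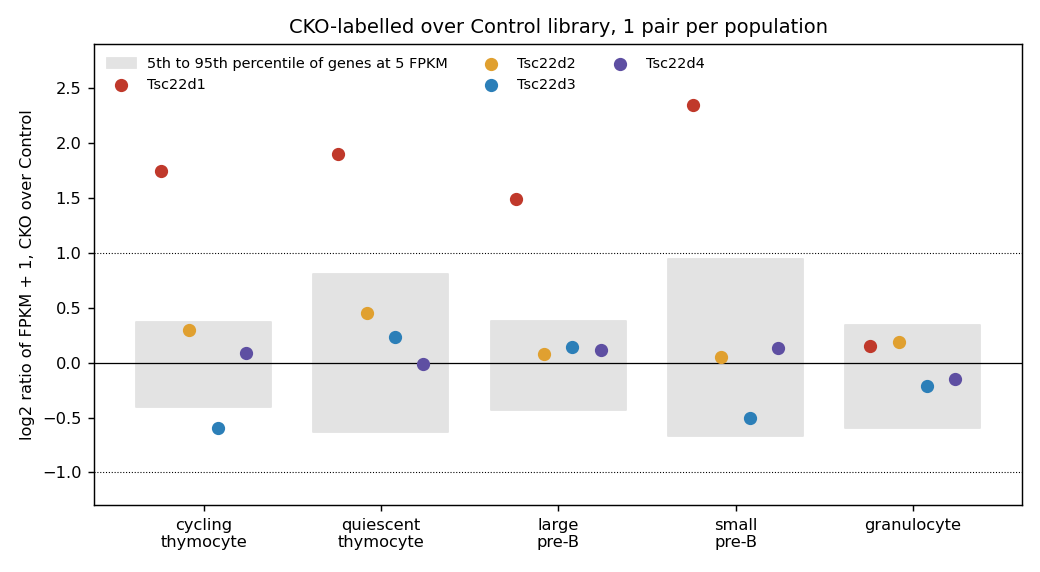
Log2 ratio of FPKM + 1, CKO over Control (vertical), for the 4 members in each population, 1 pair of libraries each and no error bars; the grey box spans the 5th to 95th percentile of genes that reach 5 FPKM in either library of the pair, and dotted lines mark 2-fold. Tsc22d1 lies above the box in the 4 lymphoid populations, from 1.49 to 2.34, and Tsc22d3 lies below it in cycling thymocytes.

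The make-up of the family shifted with Tsc22d1. It held 16.4% of the family's summed FPKM in Control cycling thymocytes and 43.7% in CKO. In quiescent thymocytes it held 16.5% and 40.7%, in large pre-B cells 13.5% and 29.5%, and in small pre-B cells 10.96% and 42.8%. It was therefore the most abundant member in 3 of the CKO libraries and in no Control library. In granulocytes it held 0.456% and 0.598%, and Tsc22d4 held 62.3% and 63.0%. The family sum was 357 FPKM in Control and 455 in CKO cycling thymocytes, 350 and 535 in quiescent thymocytes, 107 and 143 in large pre-B cells, 175 and 237 in small pre-B cells, and 428 and 381 in granulocytes.

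**Figure D3:**
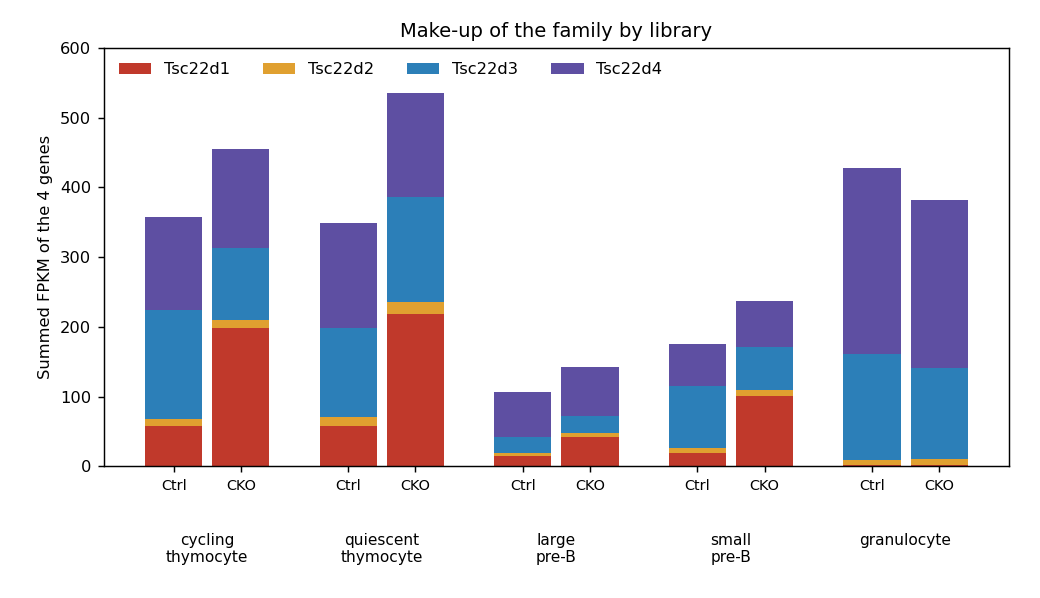
Stacked FPKM of the 4 members (vertical, from 0) in each of the 10 libraries, 1 bar per library. The Tsc22d1 segment widens from 58.7 to 199 FPKM in cycling thymocytes and from 19.2 to 101 in small pre-B cells, while granulocytes hold almost none.

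Other genes also differed between the labels, in some pairs and not in others. Of 10 proliferation genes, all 10 were at least 2-fold higher in CKO quiescent thymocytes (median log2 ratio 3.46) and 7 in CKO small pre-B cells (1.14). In cycling thymocytes and large pre-B cells none was 2-fold apart (medians 0.07 and 0.13). Natural killer markers summed to 47.6 FPKM in Control and 99.2 in CKO large pre-B cells, and to 6.07 and 55.5 in small pre-B cells. In thymocytes Ncr1, a defining natural killer marker, is listed at 0 in all 4 libraries, although Gzma, another gene of that list, reached 20.2 to 64.5. Of 6 plasmacytoid dendritic markers that could be read in small pre-B cells, 4 were at least 2-fold higher in CKO, with Siglech at 2.25 and 41.5 FPKM. Ly6d, the most abundant gene of that list there, was 2-fold lower, at 939 and 468 FPKM, and the list summed to 1005 in Control and 766 in CKO small pre-B cells. In large pre-B cells 4 of 6 such markers that could be read were higher in CKO, none by 2-fold. Their median log2 ratio was 0.52, beside 0.03 over all genes there. Siglech went the other way in large pre-B cells, at 7.99 in Control and 3.76 in CKO. Siglech was 0.115 or less in every thymocyte library. Monocyte and macrophage markers summed to 214 FPKM in Control and 90.8 in CKO large pre-B cells, and to 40.4 and 120 in small pre-B cells. Mature B and plasma cell markers summed to 64.3 and 48.4 in large and to 181 and 89.8 in small pre-B cells, Control first. The part of cycling cells and of these other cells in the Tsc22d1 ratios was not tested.

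The states, quiescent against cycling thymocytes and small against large pre-B cells, were compared next with limma over both genotype labels. The p-values measure only how alike the Control and CKO pools were, with 2 residual degrees of freedom, and not the spread between animals. Tsc22d3 was the member with the largest state difference. On the log2 scale its level was 1.62 higher in small than in large pre-B cells (SE 0.24, limma adjusted p = 0.00692). The difference was 1.94 in the Control and 1.29 in the CKO pair. Tsc22d1 was 0.81 higher (SE 0.21, limma adjusted p = 0.0261), made up of 0.39 in the Control and 1.24 in the CKO pair. Tsc22d2 was 0.46 higher (SE 0.12, limma adjusted p = 0.0245). Tsc22d4 was not called (−0.10, SE 0.09, 95% confidence interval −0.34 to 0.13). These 3 of 4 called members stand beside 25.6% of 11126 genes called higher. Markers of other cells differed between the same states: 7 of 8 natural killer and 4 of 4 erythroid markers were lower in small pre-B cells. Of all genes 21.8% were called lower there. Of 10 granulocyte markers 7 were higher and 3 lower, and of 4 mature B cell markers 3 were higher. Tsc22d3 itself was 131 to 152 FPKM in granulocytes. Natural killer markers summed to 47.6 and 99.2 FPKM in large and 6.07 and 55.5 in small pre-B cells, Control first, erythroid markers to 25.5 and 13.5 against 0.980 and 1.13, and granulocyte markers to 1015 and 506 against 623 and 470. Their part in the member values was not tested.

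In thymocytes 1 of 4 members was called, beside 25.2% of genes called higher. Tsc22d2 was 0.53 higher in quiescent cells (SE 0.12, limma adjusted p = 0.0170). Tsc22d1 differed by 0.06 (interval −0.47 to 0.58), Tsc22d3 by 0.13 (−0.48 to 0.74) and Tsc22d4 by 0.13 (−0.10 to 0.36). Tsc22d3 was −0.28 in the Control and 0.54 in the CKO pair. Mki67, the standard proliferation marker, was 139 FPKM in cycling and 1.70 in quiescent Control thymocytes, and 198 and 48.3 in the CKO libraries.

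These state calls rest on few libraries. Without either CKO pre-B library the Tsc22d1 difference was 0.39 (limma adjusted p = 0.139 without large and 0.140 without small pre-B CKO), and without either Control pre-B library it was 1.24 (0.0710 without large, 0.0663 without small). The Tsc22d1 call was also lost with no filter on low values (limma adjusted p = 0.0803) and in a fit of all 10 libraries by population and genotype (0.192). For Tsc22d3 the values were 1.94 without a CKO pre-B library (limma adjusted p = 0.0539 and 0.0538) and 1.29 without a Control one (0.127 and 0.129). The Tsc22d2 call in pre-B cells was lost likewise without any 1 of the 4 pre-B libraries (0.45 to 0.48, limma adjusted p from 0.131 to 0.193), and that in thymocytes without any 1 of the 8 lymphoid libraries (0.45 to 0.61, limma adjusted p from 0.0528 to 0.137). The counts over all genes fell too. Genes called higher in small pre-B cells numbered 2847, and 0 without Control large, 28 without Control small, 733 without CKO large and 732 without CKO small pre-B cells. Genes called higher in quiescent thymocytes numbered 2804, and 2 without either Control thymocyte library. Without the other lymphoid libraries they numbered 1548 to 1901.

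The difference of the 2 state effects was tested itself. No member passed, beside 6.84% of 11126 genes. Tsc22d3 came closest, 1.49 lower in thymocytes than in pre-B cells (log2 −1.49, SE 0.34, limma adjusted p = 0.0640), followed by Tsc22d1 (−0.76, SE 0.29, limma adjusted p = 0.169). These 2 members had an unadjusted p under 0.05, as had 3136 genes. Tsc22d4 gave 0.23 (interval −0.10 to 0.56) and Tsc22d2 0.07 (−0.34 to 0.48).

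Between the lineages all 4 members were higher in thymocytes than in pre-B cells, beside 33.2% of 11715 genes. The lineage and granulocyte p-values come from the same 2 genotype labels, with 1 library per population and label, so they do not measure the spread between animals either. Their fit takes the same genotype effect for all populations. The Tsc22d1 log2 ratio of CKO over Control was 1.49 to 2.34 in lymphoid pairs and 0.15 in granulocytes, where both values were under 5 FPKM. On the log2 scale Tsc22d1 was 1.70 higher (SE 0.32, limma adjusted p = 0.00279). Tsc22d3 was 1.65 higher (SE 0.15, limma adjusted p = 9.06e-05), Tsc22d4 1.12 (SE 0.07, limma adjusted p = 1.64e-05) and Tsc22d2 0.81 (SE 0.09, limma adjusted p = 0.000284). For Tsc22d4 and Tsc22d2 every thymocyte library lay above every pre-B library. For Tsc22d3 the lowest thymocyte library, at 103 FPKM, lay above the highest pre-B library, at 87.9. For Tsc22d1 they overlapped, because CKO small pre-B cells (101) exceeded both Control thymocyte libraries. Thymocytes and pre-B cells come from different organs, so lineage and tissue cannot be told apart.

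Granulocytes had Tsc22d4 as the leading member and little Tsc22d1. Tsc22d1 was below the lymphoid mean by a log2 difference of −4.31 (SE 0.36, limma adjusted p = 2.58e-05), beside 39.5% of genes called lower. Tsc22d4 was 1.37 higher (SE 0.08, limma adjusted p = 3.74e-06) and Tsc22d3 0.91 higher (SE 0.17, limma adjusted p = 0.00181), beside 41.3% called higher. The summed FPKM of all symbols was 830006 and 1.07e+06 in Control and CKO granulocytes and 360394 to 431868 in lymphoid libraries. By percentile among all symbols, Tsc22d4 was at 97.9 and 97.8 in granulocytes and at 98.0 to 98.3 in thymocytes. Tsc22d3 was at 96.2 and 95.7 in granulocytes and at 97.3 to 98.4 in thymocytes. Placing either member above its thymocyte level therefore depends on the scale. Tsc22d2 was not called (−0.19, interval −0.45 to 0.06).

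**Figure D4:**
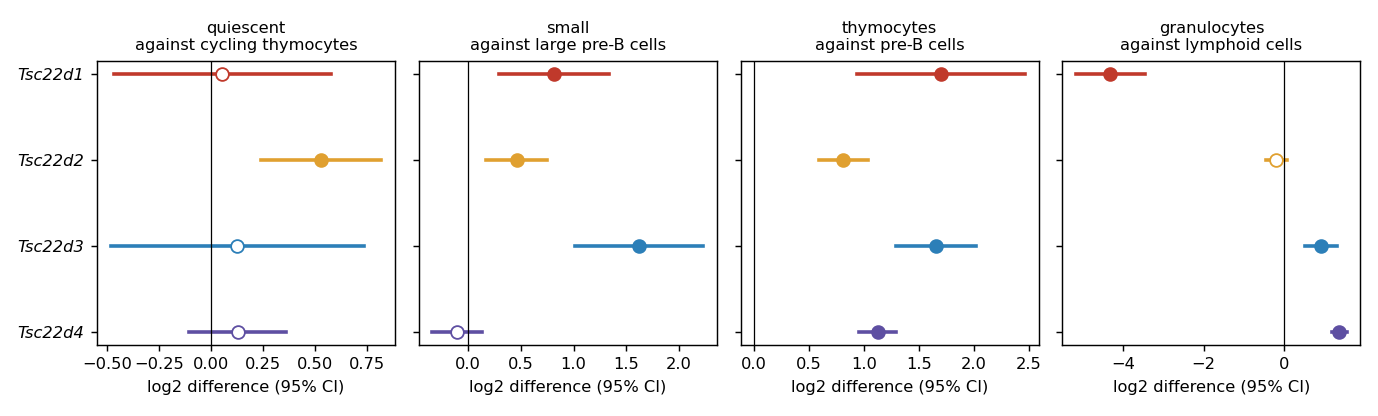
Log2 difference of FPKM + 1 (horizontal, each panel with its own scale) for the 4 members in 4 comparisons, from limma over 8 libraries (the 2 left panels) or 10 (the 2 right panels); bars are 95% confidence intervals and filled points have an adjusted p under 0.05. The 4 members are all higher in thymocytes than in pre-B cells, and Tsc22d1 alone of the 4 is lower in granulocytes with a call, by −4.31.

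Set in order by FPKM, each gene had its own ranking of populations, judged by whether the 2 libraries of a population overlap those of the next. Tsc22d1 was lowest in granulocytes, and its 4 lymphoid populations formed a chain of overlapping ranges. Tsc22d2 was highest in quiescent thymocytes, then cycling thymocytes, with overlapping small pre-B cells and granulocytes below, and lowest in large pre-B cells. Tsc22d3 overlapped among granulocytes and both thymocyte populations, was lower in small pre-B cells and lowest in large pre-B cells. Tsc22d4 was highest in granulocytes, then quiescent and cycling thymocytes without overlap, with overlapping large and small pre-B cells lowest. Between its highest and lowest library Tsc22d1 spanned 112-fold, Tsc22d3 7.06-fold, Tsc22d4 4.42-fold and Tsc22d2 3.36-fold.

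Over the 10 libraries the members did not share 1 pattern. On the log2 scale Pearson r was −0.0074 between Tsc22d1 and Tsc22d3 and −0.35 between Tsc22d1 and Tsc22d4, and 0.75 between Tsc22d3 and Tsc22d4. Over the 8 lymphoid libraries the same pairs gave 0.57, 0.68 and 0.75. The libraries share 2 genotype labels and the lineage differences, so these are descriptions of 10 points. Whether the libraries of 1 label came from the same mice is not known here.

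The genes whose values ran most like each member were found among 8613 genes by Pearson r over the 10 libraries. For Tsc22d1 they were Ptar1 (0.98), Pnn (0.96), Casp2 (0.96), Ppp1r16a (0.95) and Mex3b (0.95). For Tsc22d2 they were Pigm (0.99), Wdr47 (0.99), Xrn1 (0.98), Usp38 (0.98) and Lemd3 (0.98). For Tsc22d3 they were Vps18 (0.98), Atg12 (0.97), Slc39a1 (0.97), Pip4k2c (0.95) and Il4ra (0.95). For Tsc22d4 they were Hpcal1 (0.996), Ppp1r3b (0.99), Hk1 (0.99), Actn1 (0.99) and Vps26b (0.99). The lists depend on the granulocytes: over the 8 lymphoid libraries 0 of the 5 stayed for Tsc22d1, 2 for Tsc22d2, 2 for Tsc22d3 and 0 for Tsc22d4. All 5 genes listed for Tsc22d1 were higher in CKO in the 4 lymphoid pairs, beside 14.5% of 6578 genes. The family was chosen on that contrast, so nothing is read from this. Y-linked genes and genes with a 0 in any library were among those not compared.

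The partners of the family that reached 5 FPKM were nearly level between the genotype labels in the lymphoid pairs. Genes of the list below that level were not read, and some of them differed by more. Of 14 genes of the NRBP and WNK route, 13 were found and 7 could be read in each pair. None was 2-fold apart in a lymphoid pair, and the medians lay between −0.18 in small pre-B cells and 0.15 in cycling thymocytes, beside medians over all genes of −0.10 and 0.01. Wnk1, the only WNK kinase gene of the list that reached 5 FPKM, was 35.6 FPKM in Control and 42.6 in CKO cycling thymocytes, 49.1 and 47.7 in quiescent thymocytes, 45.3 and 55.6 in large pre-B cells, 43.3 and 44.5 in small pre-B cells, and 104 and 114 in granulocytes. Cab39, which encodes a scaffold that activates the downstream kinases, ranged from 47.3 to 142 FPKM with log2 ratios between −0.13 and 0.02. Of the downstream kinase genes, Oxsr1 was 20.3 FPKM in Control and 23.1 in CKO granulocytes. Stk39 was 12.02 FPKM in Control and 5.10 in CKO granulocytes, the only reading of the route past 2-fold. In granulocytes 1.76% of 7884 genes were at least 2-fold lower.

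The same route was also read between states and lineages, where its counts are set beside the shares of all genes and no group difference is read from them. Of 9 genes tested between thymocyte states, 4 were higher in quiescent cells and 1 lower, with a median of 0.32 beside 0.06 over all genes, of which 25.2% were higher and 19.7% lower. Between pre-B states, 2 were higher in small cells and 1 lower, with a median of −0.16 beside 0.04 over all genes, of which 25.6% were higher and 21.8% lower. Of 10 tested in granulocytes against lymphoid cells (beside 41.3% of genes higher and 39.5% lower), 7 were higher, among them Wnk1 by 1.25 (SE 0.09, limma adjusted p = 9.16e-06), and 3 lower, led by Slc12a7, a potassium-chloride cotransporter gene, at −3.43 (SE 0.14, limma adjusted p = 7.70e-07). Between thymocytes and pre-B cells 4 were higher and 2 lower of 10, beside 33.2% of genes higher and 36.5% lower.

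Glucocorticoid-responsive genes had medians on both sides of 0 between the labels. All 14 were found, and 8 to 11 could be read per pair. Their median log2 ratio was 0.20 in cycling thymocytes, where Tsc22d3 was −0.59, and −0.13 in small pre-B cells, where it was −0.51. Ddit4, an inhibitor of mTORC1 signalling, was higher in CKO in all 5 pairs: 126 and 243 FPKM in cycling thymocytes, 117 and 322 in quiescent thymocytes, 19.4 and 32.4 in large pre-B cells, 87.9 and 124 in small pre-B cells, and 10.5 and 34.4 in granulocytes. It was past 2-fold in quiescent thymocytes and granulocytes, where 3.66% and 0.571% of genes were. Errfi1, an inhibitor of EGF receptor signalling, was lower in CKO thymocytes, at 10.1 and 4.76 FPKM in cycling and 18.5 and 4.80 in quiescent cells, where 1.6% of genes were at least 2-fold lower. The receptor gene Nr3c1, named here after its values were seen, stayed within log2 ratios of −0.01 to 0.17.

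Between pre-B states Ddit4, like Tsc22d3, was called: it was 2.01 higher in small cells (SE 0.15, limma adjusted p = 0.00239). Zfp36, which encodes an mRNA decay factor, was 1.58 higher (SE 0.14, limma adjusted p = 0.00270). Fkbp5, a classic glucocorticoid-induced chaperone gene, was 1.15 lower (log2 −1.15, SE 0.21, limma adjusted p = 0.0113). In all 6 of 13 list genes were higher in small pre-B cells and 3 lower, with a median of 0.06, beside 25.6% of all genes higher, 21.8% lower and a median of 0.04. Between thymocytes and pre-B cells 9 of 14 were higher and 2 lower (median 1.11), beside 33.2% of all genes higher, 36.5% lower and a median of −0.05, the largest being the clock gene Per1 at 4.33 (SE 0.12, limma adjusted p = 8.60e-07).

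TGF-beta pathway genes that reached 5 FPKM in a pair showed no 2-fold difference between the labels in any population. Lower genes were not read, and some of them differed by more. All 16 were found and 9 to 11 could be read per pair, with medians between −0.20 in small pre-B cells and 0.11 in large pre-B cells. The ligand gene Tgfb1 was 51.3 and 50.02 FPKM in cycling thymocytes and 162 and 130 in small pre-B cells, Control first. Among the genes read, Tgif1, a corepressor gene, had the largest ratio in thymocytes, 0.66 in cycling and 0.55 in quiescent cells. Between states, 9 of 13 were higher in quiescent thymocytes with none lower (median 0.68), beside 25.2% of all genes higher, 19.7% lower and a median of 0.06. In small pre-B cells 8 were higher and 1 lower (median 0.50), beside 25.6% higher, 21.8% lower and a median of 0.04. Tgif1 was 1.201 higher in quiescent thymocytes (SE 0.12, limma adjusted p = 0.00620), and Skil, a SMAD corepressor gene, was 1.08 higher in small pre-B cells (SE 0.13, limma adjusted p = 0.00460). Tsc22d1 was called in the second of these comparisons and not in the first.

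Of 12 FoxO factors and quiescence genes, all 12 were higher in small than in large pre-B cells (median 0.92), beside 25.6% of all genes and a median of 0.04, Btg1, an antiproliferative gene, by 2.24 (SE 0.11, limma adjusted p = 0.00178). In thymocytes 8 of 12 were higher in quiescent cells and 1 lower (median 0.50), beside 25.2% and 19.7% of all genes. All these state calls are subject to the loss of calls without a Control library given above. Between the genotype labels the list's median ran from −0.16 in small pre-B cells to 0.38 in quiescent thymocytes. In the former 1 gene was at least 2-fold lower (beside 1.78% of genes), and in the latter 1 was at least 2-fold higher (beside 3.66%). Txnip, a gene of this list that encodes a thioredoxin-binding protein, was 49.4 and 81.7 FPKM in cycling thymocytes and 129 and 202 in quiescent thymocytes, Control first.

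**Figure D5:**
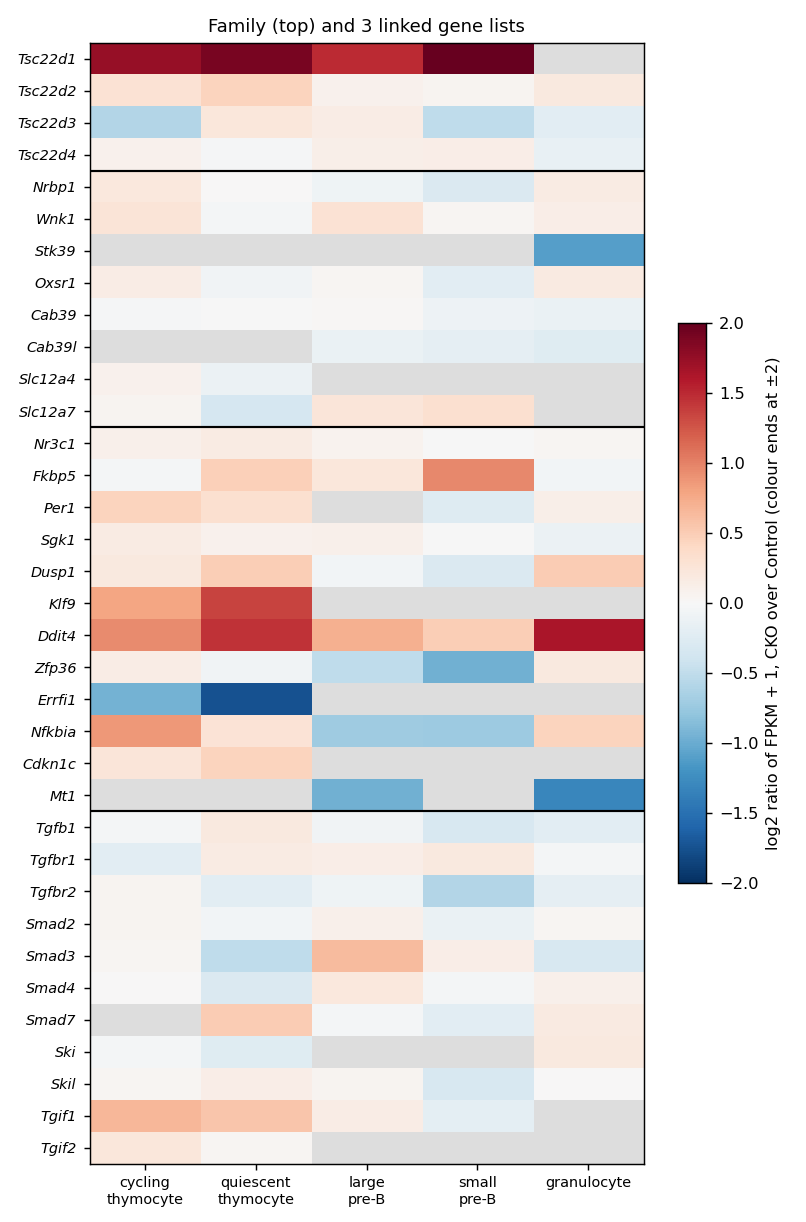
Log2 ratio of FPKM + 1, CKO over Control (colour, red higher in CKO), for the 4 members (top block) and genes of the NRBP and WNK route, the glucocorticoid list and the TGF-beta pathway (lower blocks) in 5 populations (columns), 1 pair of libraries each; grey cells are under 5 FPKM in both libraries, and genes under 5 FPKM in all 10 are among those not drawn. Tsc22d1 is the only row past 2-fold in 4 populations, and Ddit4 is above 0 in all 5.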

How the data were processed

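Total RNA was extracted with Qiagen kits from stained cells and sequenced on Illumina libraries, per the labels' protocols. TopHat2 2.0.8b, Cuffdiff 2.1.1 and mm10 are named, without roles, in the submitters' processing notes. The deposited values are read as FPKM, a unit inferred from these tools and the values. No source used here gives the annotation or strand setting. Of 23179 rows in a file, 201 were repeats, and each of 22923 symbols was taken from its row of highest mean.

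Ratios used a pseudocount of 1, which understates changes of low genes, and were read where either library reached 5 FPKM. With 1 library per population and genotype they have no test and no replicate check. State and lineage comparisons used limma 3.58.1 (trend, R 4.3.3) on log2(FPKM + 1) for genes reaching 1 FPKM in 2 fitted libraries, with Benjamini-Hochberg adjustment over all genes and a threshold of 0.05. States were fitted on the 8 lymphoid libraries with a block per lineage and genotype, and lineages on all 10 with population and genotype (4 residual degrees of freedom). The script was tested on simulated data. The lowest genes give only a weak hint of relative depth: the most common ratio of their values to those in Control cycling thymocytes was 1.04 to 1.32 in lymphoid libraries and 2.11 and 2.36 in granulocytes, at 15 to 106 genes. The members, gene lists and markers were chosen with earlier results of these data known. Genes named are the 4 members, the 5 most similar genes to each, and for each list some of its 3 most abundant genes and of those with the largest difference; Nr3c1, Mki67, Ncr1, Siglech and Ly6d were named after their values were seen. A gene of the lists is counted but not reported here. Sequences were read from GENCODE transcripts of mm10. Alternatives were pseudocounts of 0.1 and 5, no filter or 5 FPKM, median-ratio rescaling, the other of the 2 designs, and each library left out in turn.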

Additional observations from a re-analysis of the deposited data

Results flagged for a closer look

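Results for 2 genes stand out because the labels went opposite ways, with 1 pair each, and the difference was not tested. Tsc22d3 in quiescent over cycling thymocytes had a log2 ratio of −0.28 in the Control pair and 0.54 in the CKO pair. Tsc22d1 in the same comparison had −0.022 in the Control and 0.13 in the CKO pair, both small. With 1 library per group, no library could be set against replicates of its own group.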

How the results depend on the processing

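Under the other settings, 114 of 116 refitted values of the 4 members kept their direction and their side of the threshold. The exceptions were both Tsc22d1 in small against large pre-B cells, at 0.81 in each case: limma adjusted p = 0.0803 with no filter on low values and 0.192 in the other design. The cause was not tested. The members at least 2-fold apart in each population were as many under both other pseudocounts and after rescaling. The rescaling factors were only 0.986 to 1.03, so that setting could change little and is no check of the normalization. With each library left out in turn, thymocyte against pre-B and granulocyte against lymphoid calls held in all 10 fits each. Tsc22d1 then ranged from 1.44 to 1.95 and from −5.17 to −3.45. Between pre-B states Tsc22d1 ranged from 0.39 to 1.24, Tsc22d2 from 0.45 to 0.48 and Tsc22d3 from 1.29 to 1.94. Between thymocyte states the ranges were −0.022 to 0.13 for Tsc22d1, 0.45 to 0.61 for Tsc22d2 and −0.28 to 0.54 for Tsc22d3, and the difference of the state effects between lineages was −1.19 to −0.33 for Tsc22d1, −1.90 to −1.08 for Tsc22d3 and −0.0089 to 0.15 for Tsc22d2. The state fits then have 1 residual degree of freedom, and the lineage and granulocyte fits 3. Genes called for the difference of the state effects numbered 761, and 883 with a pseudocount of 5, 361 with 0.1, 0 with no filter (3857 at an unadjusted p under 0.05, limma) and 264 in the other design. Without 1 library they numbered 0 to 39. The state fits pair the states of a lineage within each genotype label through their block, and the labels give no replicate numbers for another pairing.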
